A study of Mus musculus with 6 samples.

Results

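The mitochondrial SLC25 carriers were examined in B16F10 cells, an established melanoma line of the mouse, grown in either of 2 culture media. Members were the genes whose symbol begins with Slc25a and a number, together with Ucp2 and Ucp3, which gave 49 of the 21878 genes in the expression table. RNA was sequenced from 3 libraries of cells in DMEM and 3 of cells in RPMI-1640, both common basal media and both given 10% fetal bovine serum. All 6 libraries are labelled as wild type (WT), at time 0, with no other agent that differs between the groups. The DMEM titles also carry the unexplained code HG and a 3 where the RPMI-1640 titles have a 1, so whatever these mark and the medium cannot be told apart. The code L3 stands on DMEM replicate 3 and L2 on the others. For every sample, the labels also describe an adipogenic induction with dexamethasone, isobutylmethylxanthine and insulin, which is the same text in both groups. Whether the 3 libraries of a group were separate cultures is not labelled, so each p-value rests on a spread among libraries that could be technical.

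SLC25 proteins are the main family of transporters of the inner mitochondrial membrane. Each is built from repeats of a membrane-spanning unit and moves a small molecule, usually in exchange for another, between the cytosol and the matrix. Through them pass ADP and ATP, phosphate, citrate and other organic acids, amino acids, acylcarnitines, cofactors, glutathione and iron. Uncoupling proteins belong to the same family, and a few members sit in peroxisomes or in the outer mitochondrial membrane.

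The promoters of 4 members are shown because these genes carry the main contrasts below. Slc25a1 had the largest decrease among the tested members on the log2(FPKM + 1) scale and Slc25a40 a large increase, while Slc25a4 and Slc25a5 are the 2 most abundant members and form a paralogue pair. Sequences are from RefSeq (GRCm38.p6), 5′ to 3′ on the gene's strand, and run from 250 bases before the start of the gene to 50 after it. Capitals mark matches on either strand to CCAAT (the CCAAT box), GGGCGG (the GC box) and CACGTG (an E-box), and no match overlaps another in these 4 windows. The windows lie at chr16:17928170-17928469 (minus strand) for Slc25a1, chr5:8422588-8422887 (plus) for Slc25a40, chr8:46211013-46211312 (minus) for Slc25a4 and chrX:36795347-36795646 (plus) for Slc25a5.
Slc25a1: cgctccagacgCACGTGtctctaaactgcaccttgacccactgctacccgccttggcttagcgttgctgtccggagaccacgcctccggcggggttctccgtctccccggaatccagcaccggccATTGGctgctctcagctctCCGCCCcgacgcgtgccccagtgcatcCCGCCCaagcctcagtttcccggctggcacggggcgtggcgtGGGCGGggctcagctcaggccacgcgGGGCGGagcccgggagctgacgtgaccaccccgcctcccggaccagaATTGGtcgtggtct
Slc25a40: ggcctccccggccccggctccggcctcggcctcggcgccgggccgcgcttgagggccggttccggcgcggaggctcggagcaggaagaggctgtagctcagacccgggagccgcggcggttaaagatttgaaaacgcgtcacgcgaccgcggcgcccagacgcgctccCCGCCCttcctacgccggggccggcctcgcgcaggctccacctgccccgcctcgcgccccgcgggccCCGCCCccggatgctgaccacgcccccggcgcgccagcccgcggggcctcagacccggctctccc
Slc25a4: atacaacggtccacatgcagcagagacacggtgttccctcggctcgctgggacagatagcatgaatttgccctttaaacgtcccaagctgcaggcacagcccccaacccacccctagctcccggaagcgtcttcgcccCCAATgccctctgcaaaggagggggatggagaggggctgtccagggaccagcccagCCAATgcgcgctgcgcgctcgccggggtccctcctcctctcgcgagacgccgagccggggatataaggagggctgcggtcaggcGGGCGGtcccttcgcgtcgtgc
Slc25a5: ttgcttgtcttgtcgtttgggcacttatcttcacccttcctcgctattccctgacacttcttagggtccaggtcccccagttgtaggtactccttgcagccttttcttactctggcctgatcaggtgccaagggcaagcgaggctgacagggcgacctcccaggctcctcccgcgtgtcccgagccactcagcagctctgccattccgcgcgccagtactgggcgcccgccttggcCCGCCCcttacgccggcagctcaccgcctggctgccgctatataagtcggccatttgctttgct
The Slc25a1 window held 2 CCAAT boxes, 4 GC boxes and 1 E-box. The Slc25a4 window held 2 CCAAT boxes and 1 GC box, that of Slc25a40 2 GC boxes and that of Slc25a5 1 GC box. A promoter was found for 38 of the 49 members, with 48 windows in all since a gene can have several. The GC box was present in 81.2% of these windows and in 35.7% of the 32851 windows of all genes, which is a description of letters and not of binding. CCAAT was in 45.8% of member windows and 37.4% of all windows, and CACGTG in 16.7% and 7.2%. Among members called below, a CCAAT box was in the promoter of 5 of 8 higher genes and 10 of 17 lower genes, and a GC box in 6 of 8 and 16 of 17. The windows of these higher genes had a median GC content of 64.0% and those of the lower genes 57.5%, beside 52.7% for all windows. Whether this accounts for the share with a GC box was not tested.

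Expression was given as FPKM, fragments scaled to the length of the gene and to the size of the library, a scale on which levels can be compared between genes. Depth was estimated at 37.0 to 46.4 M reads (M for mega) in DMEM and 37.8 to 45.4 M in RPMI-1640. The relation between libraries came from the step size of the FPKM values. The absolute size came from the commonest total among 828 genes with a single annotated transcript. Only 92 of them agreed on it, so the absolute depth is uncertain. All 7 melanocyte markers (Tyr, Tyrp1, Dct, Pmel, Mlana, Mitf and Sox10) were expressed, and together they summed to between 12964 and 13199 FPKM in DMEM and between 10677 and 10833 in RPMI-1640. Of 8 adipocyte markers, 5 were listed at 0 in every library (Fabp4, Cidec, Lep, Cfd and Ucp1), and the summed level of the list was 3.36 to 4.53 FPKM in DMEM and 3.72 to 4.21 in RPMI-1640, mostly from Slc2a4. The 4 fibroblast markers summed to between 0.653 and 0.867 FPKM, with Dcn at 0. Of the immune markers, Ptprc and Cd3e were at 0, and Cd68 gave 2.43 to 2.76 FPKM in DMEM and 1.66 to 1.80 in RPMI-1640.

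A few carriers held most of the family's expression, and the family total was lower in RPMI-1640. The members summed to 2596, 2530 and 2651 FPKM in the 3 DMEM libraries and to 2042, 2021 and 2077 FPKM in the 3 RPMI-1640 libraries. The groups were apart, at 2593 ± 60.8 (SD, n = 3) and 2047 ± 28.2 (SD, n = 3). In this bulk RNA, fewer cells expressing a gene and less of its RNA per cell cannot be told apart. As a share of all FPKM in the library, which removes the lower FPKM sums of the RPMI-1640 libraries, the family made up 0.531% to 0.535% in DMEM and 0.468% to 0.473% in RPMI-1640, again without overlap. Slc25a4, Slc25a5 and Slc25a3 alone gave 66.7% to 68.8% of the family sum in each library. Without these 3 genes the sum was 811 ± 19.1 FPKM (SD, n = 3) in DMEM and 672 ± 4.72 (SD, n = 3) in RPMI-1640. No test was made of these sums, since the members were chosen with results of these data known. The shares depend on gene length, which the FPKM steps put at 713 bases for Slc25a3, where the nearest transcript has 1341. In reads recovered from those steps Slc25a39 was above Slc25a3 in DMEM, with 17467, 13855 and 19192 against 15365, 12724 and 16623. In RPMI-1640 their order varied by library.

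**Figure D1:**
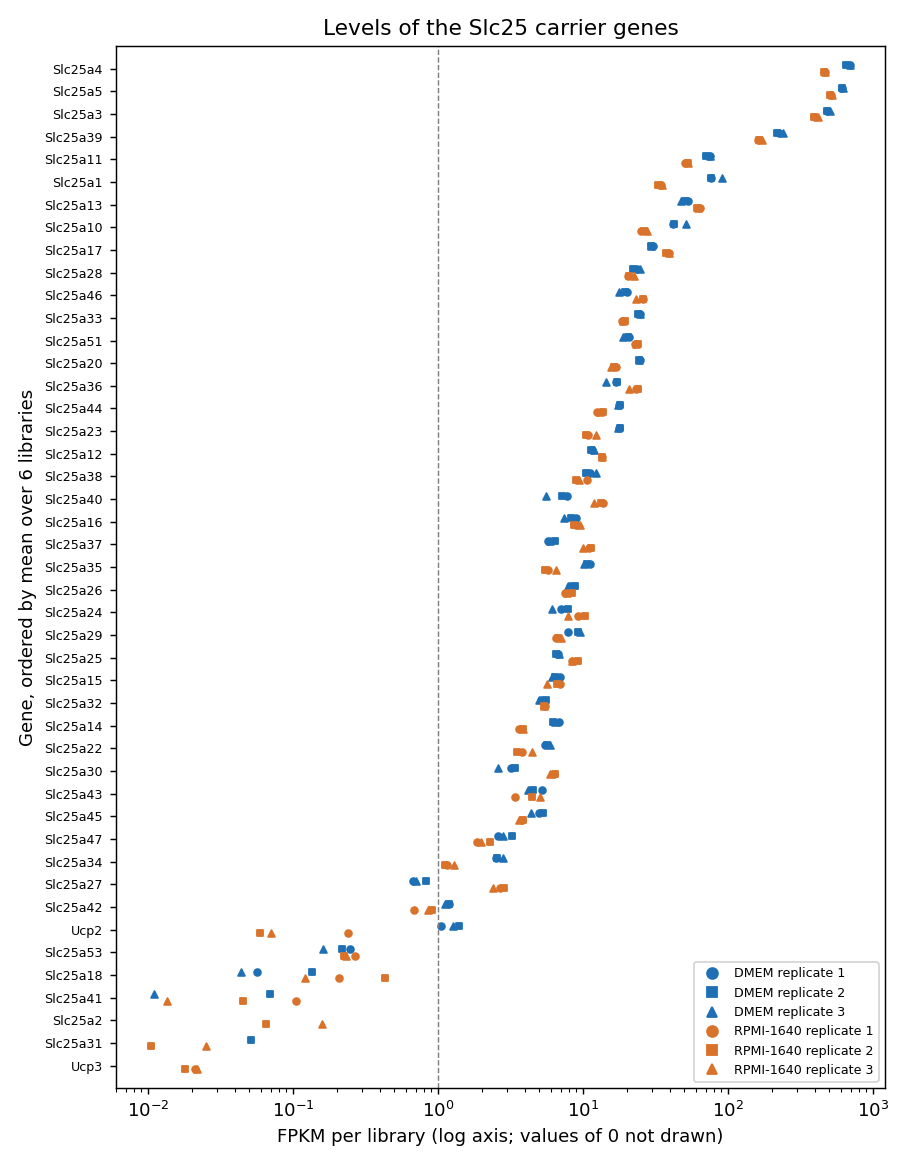
FPKM (log axis) of family members in each library, blue for DMEM and orange for RPMI-1640, with marker shapes for replicates and a dashed line at 1 FPKM; values of 0 are not drawn. Slc25a4, Slc25a5, Slc25a3 and Slc25a39 stand above the other members in every library, Slc25a39 from 162 FPKM upwards, and Slc25a1 and Ucp2 show wide gaps between the media.

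Of the 49 members, 38 averaged 1 FPKM or more over all libraries and were tested. The other 11 comprised 3 listed at 0 in every library (Slc25a21, Slc25a48 and Slc25a54) and 8 with lower means (Slc25a42, Ucp2, Slc25a53, Slc25a18, Slc25a41, Slc25a2, Slc25a31 and Ucp3). At the edge of this limit, Slc25a27 was the lowest member inside it, with a mean of 1.69 FPKM, and Slc25a42 the highest outside it, with 0.989. Among the tested members, limma called 12 higher and 20 lower in RPMI-1640 at a Benjamini-Hochberg adjusted p under 0.05, and 6 did not pass. The 32 calls are 84.2% of the tested members, beside 76.0% of all 10624 tested genes, of which 40.6% were higher and 35.4% lower. Within the family 31.6% were higher and 52.6% lower. The media were without overlap for 30 of the 38 members (78.9%), beside 79.0% of all tested genes. Being called was therefore about as common in the family as elsewhere in the table, and the counts alone set nothing apart.

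The log2 fold changes reported here are RPMI-1640 minus DMEM on log2(FPKM + 1), which understates the change of low genes. Their median was -0.24 over the 38 members and 0.033 over all tested genes. When every library was scaled to a common FPKM total, the median of all tested genes shifted to 0.18 and that of the members to -0.085, with 13 members higher and 18 lower. The size of change was ordinary, since the absolute log2 fold change had a median of 0.37 in the family and 0.35 in all tested genes. A change of at least 1 on this scale was seen in 2 members, Slc25a1 and Slc25a27.

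**Figure D2:**
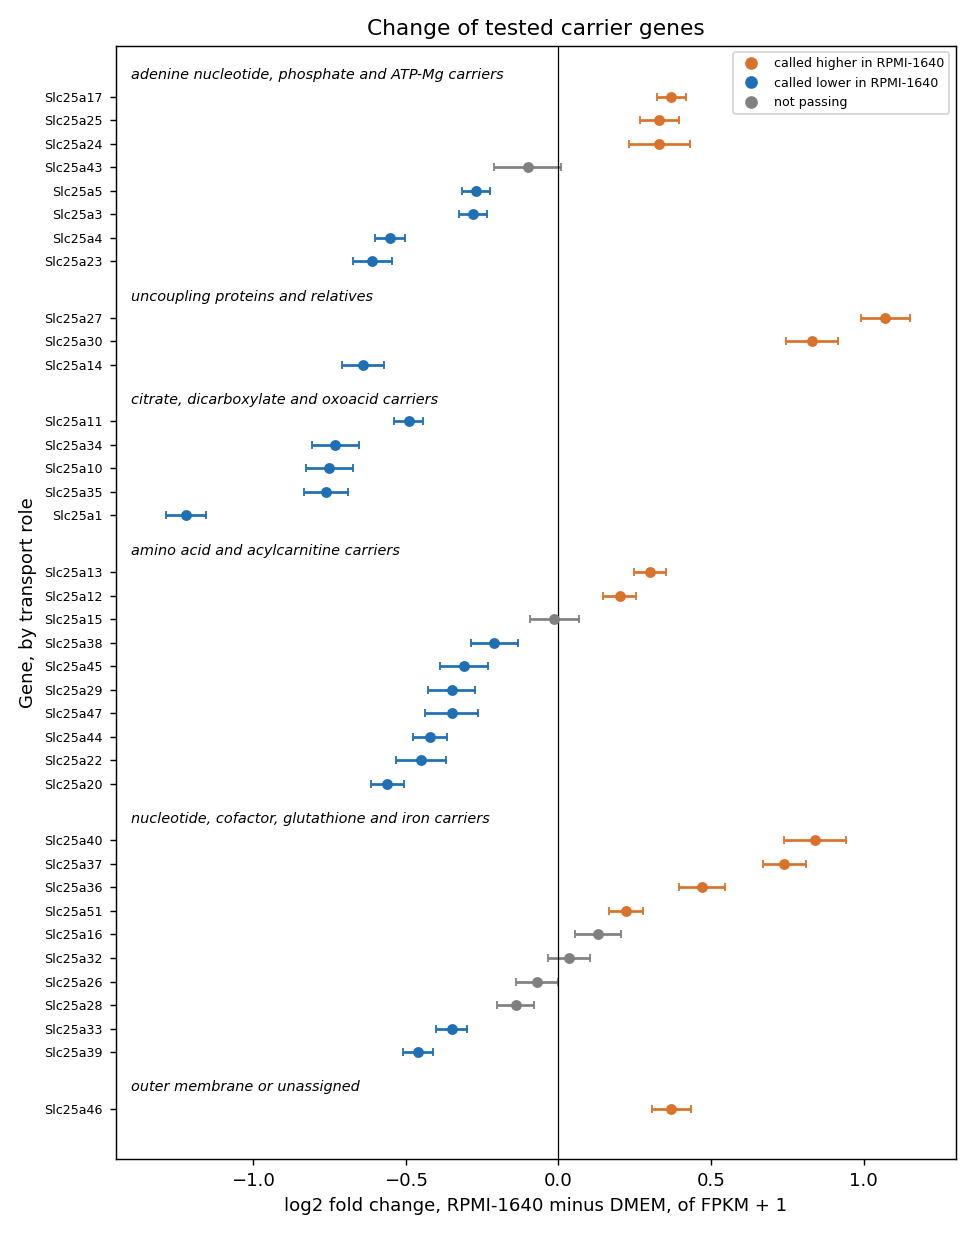
Log2 fold change (RPMI-1640 minus DMEM, log2(FPKM + 1)) of tested members grouped by transport role, with bars for the standard error of the limma fit and 3 libraries per medium. Orange points passed as higher, blue points as lower and grey points did not pass; the 5 citrate, dicarboxylate and oxoacid carriers all lie left of 0.

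Fold changes in this table followed the base composition and length of the genes, and this touches many members. Over the 38 tested members Spearman's rho between the log2 fold change and GC content was -0.693, and 0.416 with gene length; over 10321 tested genes the values were -0.487 and 0.464. The points share the same 6 libraries, so no p is given. Transcripts of the 12 higher members had a median GC content of 46.0% (range 34.2 to 53.8) and those of the 20 lower members 55.0% (range 47.9 to 60.6). The same axis also separated libraries of a medium. Deviations from the group mean correlated with GC content at 0.673 for DMEM replicate 3 and at 0.437 for RPMI-1640 replicate 3, while the other 4 libraries lay between -0.483 and -0.214.

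The calls were therefore also made with a smooth trend on length and GC content subtracted from each library, referred to below as trend-removed values. In that fit 74.1% of 10321 genes passed, and the family had 8 members higher, 16 lower and 14 not passing, with a median of -0.085 beside 0.0019 for all genes. Of the 32 members called on the deposited values, 21 kept both sign and call. The sign held without a call for 5 (Slc25a3, Slc25a24, Slc25a36, Slc25a39 and Slc25a45), and it changed without a call for 6 (Slc25a12, Slc25a29, Slc25a38, Slc25a46, Slc25a47 and Slc25a51). No called member passed with the opposite sign there. With the replicate number also in the fit as a block, 1 did: Slc25a12 turned from 0.20 to -0.13 and passed (limma, adjusted p = 0.0339). Over the alternatives, the adjusted p of Slc25a12 ran from 0.000194 to 0.126. Slc25a28, Slc25a15 and Slc25a32 had not passed on the deposited values and passed with the trend removed.

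**Figure D3:**
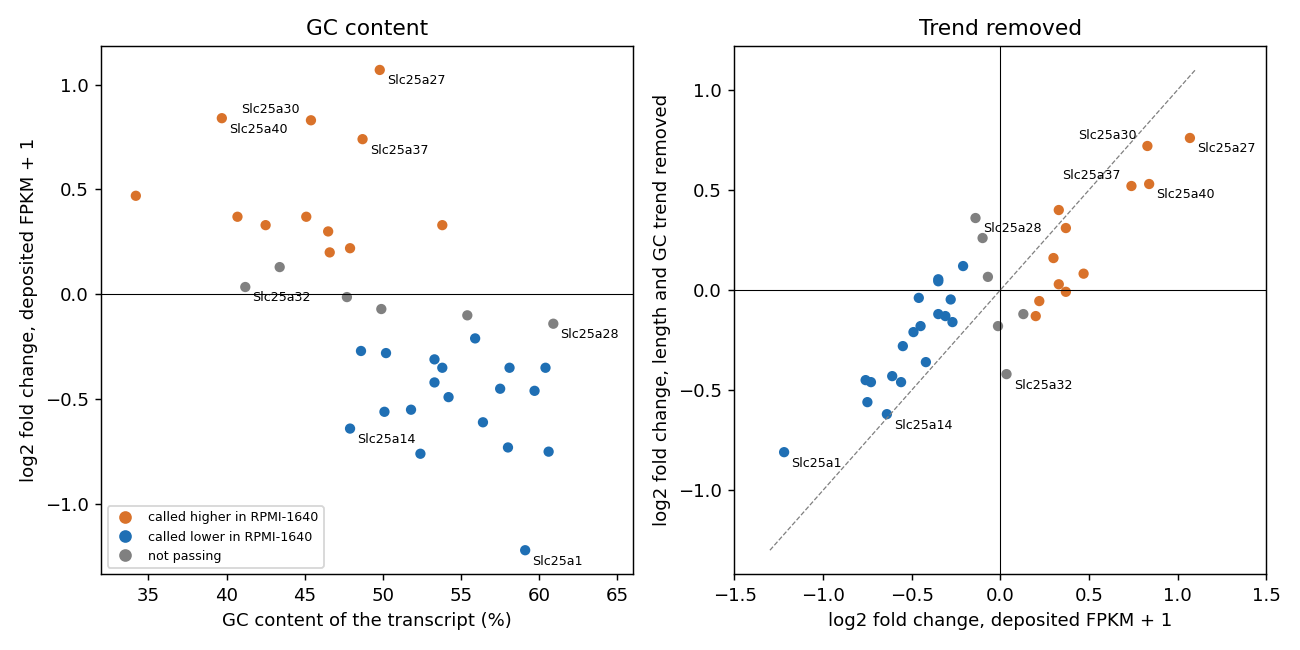
Left, log2 fold change (deposited FPKM + 1) of tested members against the GC content of their transcripts in percent. Right, the same fold change against its value with the length and GC trend removed, where the dashed line marks equal values; colours give the call on the deposited values. Higher members lie at lower GC content, and Slc25a1, Slc25a27, Slc25a30, Slc25a40 and Slc25a37 stay far from 0 on both axes.

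Each tested member grouped with the carriers of citrate and related acids was lower in RPMI-1640. All 5 tested members were called lower as deposited (median -0.75), as were 35.4% of all tested genes. They were called lower again with the trend removed (median -0.46), where 74.1% of all genes passed in either direction. Their summed level was 207, 203 and 229.6 FPKM in DMEM and 117, 119 and 124 FPKM in RPMI-1640. Slc25a1 exports citrate from the matrix in exchange for malate and so feeds cytosolic acetyl-CoA for fatty acid and sterol synthesis. Its level was 76.8, 76.4 and 90.4 FPKM in DMEM and 34.4, 33.1 and 35.1 FPKM in RPMI-1640. Every DMEM library was far above every RPMI-1640 library, and the means were 81.2 ± 7.95 (SD, n = 3) and 34.2 ± 1.01 (SD, n = 3), a 2.38-fold difference. This was the largest decrease among the tested members, -1.22 on the log2 scale (SE 0.065, limma, adjusted p = 4.15e-08), and -0.81 with the trend removed.

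Slc25a10, the dicarboxylate carrier that exchanges malate or succinate for phosphate, had 41.7, 42.3 and 51.5 FPKM in DMEM and 25.1, 26.1 and 27.7 in RPMI-1640. Its groups did not overlap, and the log2 fold change of -0.75 (SE 0.077, limma, adjusted p = 3.96e-06) became -0.56 with the trend removed. That value is uncertain, since the FPKM steps imply a length of 4000 bases and the annotated exons hold 3455. Slc25a11, the oxoglutarate-malate carrier of the malate-aspartate shuttle, was the most abundant of the group outside Slc25a1 in DMEM and the most abundant in RPMI-1640, with 75.2, 70.8 and 74.8 FPKM against 50.4, 53.1 and 53.1. It fell by 0.49 on the log2 scale, and by 0.21 with the trend removed. Slc25a34 and Slc25a35 are related to the oxaloacetate carrier of yeast, and their substrates in the mouse are less settled. Slc25a34 was low in both media, at 2.49, 2.55 and 2.79 FPKM in DMEM and 1.16, 1.11 and 1.28 in RPMI-1640. Slc25a35 was at 11.1, 10.6 and 10.2 FPKM in DMEM and 5.71, 5.46 and 6.47 in RPMI-1640. The log2 fold changes of these genes were -0.73 and -0.76, and -0.46 and -0.45 with the trend removed. The value of Slc25a35 is uncertain, since 31.3% of its exon bases overlap Rangrf on the opposite strand and 28% of its 32-base words occur in transcripts of other genes. Slc25a21, the oxodicarboxylate carrier of lysine breakdown, was listed at 0 in each library.

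The uncoupling proteins and their relatives moved in opposite directions. Slc25a27, Slc25a30 and Slc25a14 are relatives of the uncoupling proteins best known from brain and kidney, and their substrates are not settled. Slc25a27 was at 0.675, 0.823 and 0.702 FPKM in DMEM and at 2.69, 2.85 and 2.40 FPKM in RPMI-1640. All RPMI-1640 libraries were above all DMEM libraries, with means of 0.733 ± 0.079 (SD, n = 3) and 2.65 ± 0.225 (SD, n = 3). It rose by 1.07 on the log2 scale (SE 0.081, limma, adjusted p = 4.18e-07), or by 1.84 with a pseudocount of 0.01 and 0.76 with the trend removed. The trend-removed value is uncertain, since the FPKM steps imply a length of 5621 bases and the annotated exons hold 3935. Slc25a27 was below 1 FPKM in each DMEM library and reached the tested set through its RPMI-1640 values.

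Slc25a30 gave 3.20, 3.40 and 2.59 FPKM in DMEM and 6.30, 6.45 and 5.90 FPKM in RPMI-1640, again with no overlap. It rose by 0.83 on the log2 scale (SE 0.085, limma, adjusted p = 4.21e-06), and by 0.72 with the trend removed. Slc25a14 went the other way, with 6.83, 6.22 and 6.43 FPKM in DMEM and 3.64, 3.88 and 3.87 FPKM in RPMI-1640. Its log2 fold change of -0.64 (SE 0.068, limma, adjusted p = 5.18e-06) hardly moved with the trend removed, at -0.62. Ucp2, which lowers the proton gradient and carries small organic acids out of the matrix, was below the limit for testing. Its levels were 1.04, 1.39 and 1.26 FPKM in DMEM and 0.239, 0.0587 and 0.0704 FPKM in RPMI-1640, which rest on 70, 77 and 88 reads against 14, 4 and 4 reads. The media did not overlap. With no filter on low values, a fit in which 57.6% of 15570 genes passed, Ucp2 changed by -0.99 on the log2 scale (SE 0.08, limma, adjusted p = 6.71e-05). Ucp3, known from skeletal muscle, was 0 in DMEM and at most 0.0216 FPKM in RPMI-1640, which rests on 1 recovered read in each library.

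Carriers of adenine nucleotides and phosphate supplied most of the family's RNA, and the most abundant ones were lower in RPMI-1640. The group summed to 1853, 1805 and 1886 FPKM in DMEM and 1446, 1421 and 1474 FPKM in RPMI-1640. Of its 8 tested members 3 were higher, 4 lower and 1 did not pass, beside 40.6% higher and 35.4% lower among all tested genes. Slc25a4 and Slc25a5 are adenine nucleotide translocases, which send ATP out of the matrix in exchange for ADP. Slc25a4 had 693, 648 and 696 FPKM in DMEM and 468, 455 and 469 in RPMI-1640, a drop with no overlap and a log2 fold change of -0.55 (SE 0.049, limma, adjusted p = 1.54e-06). Slc25a5 had 611, 608 and 622 FPKM in DMEM and 509, 501 and 517 in RPMI-1640, a smaller decrease of -0.27 on the log2 scale. With the trend removed both were still called lower, at -0.28 and -0.16, while quantile normalization left Slc25a5 at -0.015 and not passing. Slc25a5 shares 66.3% of its 32-base words with transcripts of 12 other genes, among them Gm5560, so its level is uncertain. Slc25a3, the phosphate carrier that supplies ATP synthase, had 481, 483 and 502 FPKM in DMEM and 398, 392 and 414 in RPMI-1640. It was called lower at -0.28, but not with the trend removed (-0.047) or after quantile normalization (-0.042).

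The ATP-Mg carriers exchange ATP-Mg for phosphate under the control of cytosolic calcium, and they did not share a direction. Slc25a23 was at 17.6, 17.9 and 17.3 FPKM in DMEM and 10.8, 10.5 and 12.2 FPKM in RPMI-1640. It fell by 0.61 on the log2 scale (SE 0.064, limma, adjusted p = 4.77e-06), and by 0.43 with the trend removed. Slc25a24 was at 7.04, 7.81 and 6.11 FPKM in DMEM and 9.17, 10.3 and 7.81 FPKM in RPMI-1640, so the highest DMEM value reached the lowest RPMI-1640 value. Its log2 fold change of 0.33 passed (SE 0.1, limma, adjusted p = 0.00999) but did not pass without RPMI-1640 replicate 2 (0.25), after quantile normalization (0.18) or with the trend removed (0.029). Slc25a25 was at 6.69, 6.54 and 6.77 FPKM in DMEM and 8.43, 9.19 and 8.38 FPKM in RPMI-1640, with no overlap. It was higher by 0.33 on the log2 scale and by 0.40 with the trend removed. Slc25a17, which carries coenzyme A and other cofactors into peroxisomes, was also higher, at 29.5 ± 0.555 FPKM (SD, n = 3) in DMEM and 38.4 ± 1.02 (SD, n = 3) in RPMI-1640, with a log2 fold change of 0.37 (0.31 with the trend removed). Slc25a43 did not pass (-0.10). Slc25a42, a coenzyme A carrier, stood at 1.17 ± 0.0383 FPKM (SD, n = 3) and 0.814 ± 0.113 (SD, n = 3). The testis translocase Slc25a31 and the ATP-Mg carrier Slc25a41 were at or below 0.104 FPKM in each library.

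Of 10 tested amino acid and acylcarnitine carriers, 2 were higher, 7 lower and 1 not passing on the deposited values. Among all tested genes 40.6% were higher and 35.4% lower. With the trend removed 1 of the 10 carriers was higher, 4 were lower and 5 did not pass. In that fit 74.1% of all genes passed in either direction. Slc25a20 brings acylcarnitines into the matrix for fatty acid oxidation. It was at 24.8, 24.2 and 24.3 FPKM in DMEM and 16.8, 16.3 and 15.5 FPKM in RPMI-1640, with close replicates and no overlap. It fell by 0.56 on the log2 scale (SE 0.053, limma, adjusted p = 2.06e-06), and by 0.46 with the trend removed. Slc25a22, a glutamate carrier, and Slc25a44, a carrier of branched-chain amino acids, were lower too, by -0.45 and -0.42 on the log2 scale, and by -0.18 and -0.36 with the trend removed. The basic amino acid carrier Slc25a29 (-0.35), Slc25a47 (-0.35), Slc25a45 (-0.31) and the glycine carrier Slc25a38 (-0.21) were called lower on the deposited values but not with the trend removed. The call of Slc25a38 was also lost when DMEM replicate 1 (-0.22) or 3 (-0.16) was left out, and when RPMI-1640 replicate 2 (-0.17) or 3 (-0.20) was, with no filter on low values (-0.21), and after scaling to a common total (-0.064). The call of Slc25a45 was lost under that scaling as well (-0.18).

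The aspartate-glutamate carriers of the malate-aspartate shuttle were slightly higher. Slc25a13 had 53.3, 50.6 and 47.4 FPKM in DMEM and 63.9, 60.9 and 61.8 in RPMI-1640, a log2 fold change of 0.30 that was 0.16 and still called with the trend removed. Slc25a12 had 11.6, 11.4 and 11.8 FPKM in DMEM and 13.4, 13.5 and 13.6 in RPMI-1640. Its replicates were tight and the groups apart, but its log2 fold change of 0.20 turned to -0.13 with the trend removed, and was 0.096 and not passing after quantile normalization. The ornithine carrier Slc25a15 was level between the media on the deposited values, at 6.45 ± 0.425 FPKM (SD, n = 3) and 6.39 ± 0.658 (SD, n = 3). The other ornithine carrier Slc25a2 and the glutamate carrier Slc25a18 stayed at or below 0.433 FPKM.

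Carriers of nucleotides, cofactors, glutathione and iron were divided, with 4 of 11 tested members higher, 3 lower and 4 not passing. Among all tested genes 40.6% were higher and 35.4% lower. Slc25a39 and Slc25a40 import glutathione into mitochondria. In FPKM Slc25a39 was the fourth most abundant member, at 226, 217 and 239.8 in DMEM and 162, 164 and 171 in RPMI-1640. Slc25a40 was far lower in level and changed the other way, from 7.79, 7.13 and 5.57 FPKM in DMEM to 13.7, 13.2 and 11.9 FPKM in RPMI-1640. Neither gene's values overlapped between the media. Slc25a40 rose by 0.84 on the log2 scale (SE 0.1, limma, adjusted p = 1.36e-05), and by 0.53 with the trend removed. Slc25a39 fell by 0.46 (SE 0.05, limma, adjusted p = 6.88e-06), but was at -0.039 and did not pass with the trend removed.

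The mitoferrins Slc25a37 and Slc25a28 import iron for heme and iron-sulfur clusters. Slc25a37, known best from developing red cells, was at 5.73, 6.42 and 5.91 FPKM in DMEM and 10.9, 11.4 and 10.0 FPKM in RPMI-1640. Its values were clearly apart, with a log2 fold change of 0.74 (SE 0.07, limma, adjusted p = 2.24e-06) and 0.52 with the trend removed. Slc25a28, the broadly expressed mitoferrin, was at 23.4, 22.1 and 24.8 FPKM in DMEM and 20.3, 20.7 and 22.5 FPKM in RPMI-1640, with overlapping groups. It did not pass (-0.14, SE 0.061, limma, adjusted p = 0.0542), but it passed as lower with the replicate number as a block (adjusted p = 0.0166). It also passed as lower without DMEM replicate 2 or without RPMI-1640 replicate 3 (-0.18 in each case). The same held after quantile normalization (-0.18) and for recovered reads with voom (-0.20). With the trend removed it passed as higher (0.36). Over the alternatives its adjusted p ran from 1.22e-05 to 0.794.

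Slc25a33 and Slc25a36 carry pyrimidine nucleotides into the matrix. Slc25a33 was at 24.8, 23.9 and 24.8 FPKM in DMEM and 18.6, 19.6 and 18.9 FPKM in RPMI-1640, and Slc25a36 at 16.9, 17.1 and 14.4 FPKM in DMEM and 23.2, 23.9 and 20.8 FPKM in RPMI-1640. They changed in opposite directions without overlap, with log2 fold changes of -0.35 and 0.47; with the trend removed these were -0.12, still called, and 0.082, not called. Slc25a51, known in human cells as the carrier of NAD, was higher by 0.22 on the log2 scale, but not with the trend removed (-0.055). The S-adenosylmethionine carrier Slc25a26, the folate and FAD carrier Slc25a32 and Slc25a16 did not pass, with log2 fold changes of -0.07, 0.035 and 0.13. Slc25a26 passed as lower after quantile normalization (-0.22), and Slc25a16 as higher after scaling to a common total (0.28). With the trend removed Slc25a32 was called lower at -0.42. Slc25a46, an outer membrane protein that shapes mitochondria, was called higher by 0.37, and was at -0.0087 with the trend removed.

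The balance within paralogue pairs was compared per library, because the ratio of 2 genes is free of the library's scaling. Of 9 pairs with a shared transport role, 7 had both members tested, and for 5 the ratio did not overlap between the media. Single genes did not overlap in 79.0% of all those tested, and no share over other gene pairs was computed, so the count sets nothing apart. With 3 libraries against 3, the exact two-sided permutation test cannot give a p below 0.1, which these 5 pairs reached (0.14 adjusted over the 7 pairs). The ratio of Slc25a4 to Slc25a5 was 1.13, 1.07 and 1.12 in DMEM and 0.920, 0.908 and 0.906 in RPMI-1640. In FPKM, Slc25a4 thus ranked first in each DMEM library and Slc25a5 in each RPMI-1640 library, within the uncertainty of Slc25a5 given above. This rank depends on gene length, which the FPKM steps put at 1108 bases for Slc25a4, where the nearest transcript has 1925. In recovered reads, which may be divisors of the true numbers, Slc25a4 was below Slc25a5 in every library. The DMEM reads were 34419, 26516 and 35809 for Slc25a4 and 35493, 29078 and 37394 for Slc25a5. In FPKM the pyrimidine carriers also exchanged rank. The ratio of Slc25a33 to Slc25a36 was 1.47, 1.4 and 1.73 in DMEM and 0.803, 0.818 and 0.909 in RPMI-1640. In recovered reads their order in DMEM was mixed, at 2089, 1659 and 2159 for Slc25a33 and 2210, 1846 and 1944 for Slc25a36. Slc25a33 was below Slc25a36 in reads in every RPMI-1640 library.

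The ratio of Slc25a39 to Slc25a40 was 29, 30.5 and 43 in DMEM and 11.8, 12.4 and 14.4 in RPMI-1640, so Slc25a39 led throughout by a smaller margin in RPMI-1640. The ratio of Slc25a37 to Slc25a28 was 0.244, 0.290 and 0.238 in DMEM and 0.536, 0.549 and 0.444 in RPMI-1640. Slc25a28 remained the more abundant mitoferrin in each library. The ratio of Slc25a23 to Slc25a24 was 2.49, 2.29 and 2.83 in DMEM and 1.18, 1.03 and 1.56 in RPMI-1640. The ratios of Slc25a12 to Slc25a13 (exact permutation p = 0.3) and of Slc25a24 to Slc25a25 (exact permutation p = 1) overlapped between the media. With the trend removed the change in ratio was smaller for the 5 pairs. The log2 change went from -0.28 to -0.13 for Slc25a4 to Slc25a5 and from -0.86 to -0.20 for Slc25a33 to Slc25a36. It went from -1.39 to -0.57 for Slc25a39 to Slc25a40 and from -1.03 to -0.46 for Slc25a23 to Slc25a24, without overlap in these 4 pairs. It went from 0.98 to 0.16 for Slc25a37 to Slc25a28, where the media then overlapped. For the other 2 pairs the change grew, to -0.29 for Slc25a12 to Slc25a13 and to -0.38 for Slc25a24 to Slc25a25, and the media then did not overlap.

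**Figure D4:**
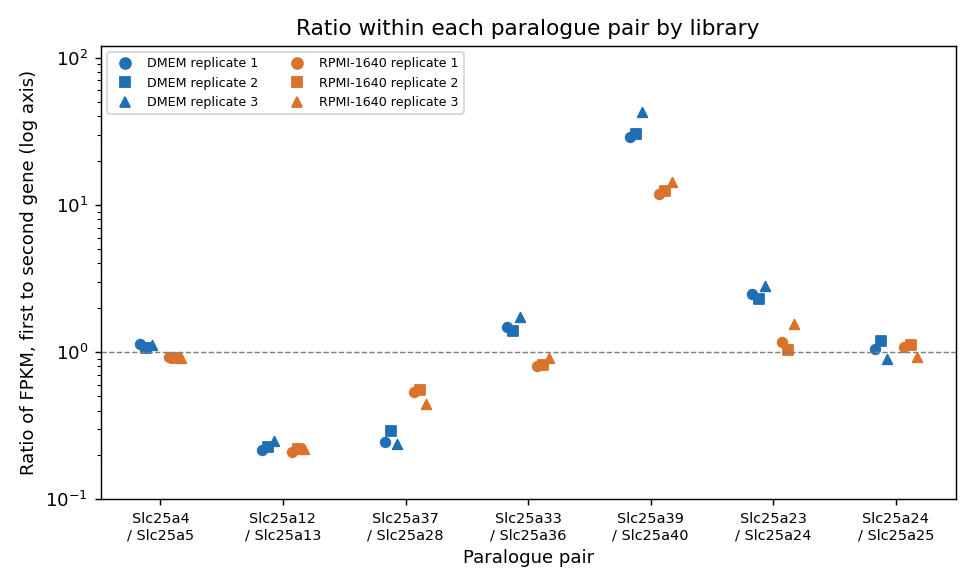
Ratio of FPKM of the first to the second gene of each of 7 paralogue pairs, on a log axis, in each library; blue marks DMEM, orange RPMI-1640, and the dashed line a ratio of 1. The ratios of Slc25a4 to Slc25a5 and of Slc25a33 to Slc25a36 lie above 1 in DMEM and below 1 in RPMI-1640, and 5 of the 7 pairs do not overlap between the media.

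Genes that work with the carriers were described from lists chosen by role. Beside the counts in these lists, 40.6% of all tested genes were higher and 35.4% lower as deposited. With the trend removed 74.1% of all genes passed in either direction. Relatives of the family under other symbols were lower: the outer membrane proteins Mtch1 and Mtch2 were both called, with and without the trend, though Mtch2 was at 0.021 when libraries were scaled to a common total. Mtch1 was at 321, 324 and 374 FPKM in DMEM and 168, 170.5 and 182 FPKM in RPMI-1640 (log2 fold change -0.96), and Mtch2 changed by -0.14. Translocases and chaperones of carrier import, at either membrane, had 3 of 12 tested members higher, 6 lower and 3 not passing (median -0.12). With the trend removed 6 were higher, 3 were lower and 3 did not pass. Agk, a subunit of the complex that inserts carriers into the inner membrane, was higher (0.59). Of its partners, Timm9 was higher as well (0.31), while Timm22 (-0.31) and Timm10b (-0.62) were lower. All of these kept sign and call with the trend removed. Timm10 was called lower as deposited (-0.20) and higher with the trend removed (0.13). Other metabolite carriers and channels had 4 of 10 higher, 5 lower and 1 not passing (median -0.094), and 4 higher, 3 lower and 3 not passing with the trend removed (median 0.056). Of the pyruvate carrier, Mpc1 was lower (-0.36, and -0.38 with the trend removed), while Mpc2 was called lower as deposited (-0.17) and higher with the trend removed (0.18). Sfxn5, a sideroflexin, was higher by 0.41, and by 0.48 with the trend removed.

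Enzymes of the malate-aspartate and glycerophosphate shuttles had 2 of 6 members higher and 4 lower (median -0.37), and 2 higher, 3 lower and 1 not passing with the trend removed (median -0.086). Mdh1, the cytosolic malate dehydrogenase, fell by 0.53 on the log2 scale, and Gpd1 and Gpd2, the cytosolic and mitochondrial glycerophosphate dehydrogenases, went apart at -0.75 and 0.65. These 3 kept sign and call with the trend removed, at -0.61, -0.51 and 0.21. Regulators of mitochondrial genes had 4 of 8 tested members higher, 2 lower and 2 not passing (median 0.28), and 4 higher, 3 lower and 1 not passing with the trend removed (median 0.078). Ppargc1b, a coactivator, was at 0.779, 0.730 and 0.687 FPKM in DMEM and 2.13, 2.03 and 2.10 FPKM in RPMI-1640 (log2 fold change 0.83, or 1.5 with a pseudocount of 0.01). It was below 1 FPKM in each DMEM library and reached the tested set through its RPMI-1640 values. Its relative Ppargc1a did not pass as deposited (0.0049) and was called lower with the trend removed (-0.62). Gabpa, a transcription factor of respiratory genes, rose by 0.75, or 0.26 with the trend removed. Esrra, an orphan nuclear receptor, was called lower on the deposited values (-0.50) but not with the trend removed (-0.11).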

How the data were processed

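RNA was extracted with Trizol and sequenced from SMARTer mRNA-seq libraries, per the labels' protocols; libraries were grouped by the medium in their titles. The deposited table holds FPKM computed by the authors for each library. The builds GRCm38 and mm10 are named in the submitters' processing notes; the aligner, counting tool, annotation and use of strand were not given in the sources used here, and overlapping genes may share reads. The members and lists were chosen with earlier results of these data known. Some genes are counted but not reported here by name, nor drawn in the figures.

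The 10624 genes that averaged 1 FPKM or more were tested with limma 3.58.1 (R 4.3.3) on log2(FPKM + 1), medium being the only term. The test was two-sided, with a mean-variance trend in eBayes. An adjusted p (Benjamini-Hochberg, over all these genes) under 0.05 was called. The step was tested on simulated data with independent noise for each gene and library. That simulation cannot show how calls fare when genes deviate together along length and GC content. Tables, exact tests and figures used Python 3.11.15, pandas 2.3.3, numpy 2.4.6, scipy 1.17.1 and matplotlib 3.10.9. Full values were given for the 12 tested members with the largest absolute log2 fold change, the 5 with the highest mean and those in testable pairs; other members went by role, as far as reported. Ucp2 and the genes named from other lists were chosen after their values were seen.

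Whole reads came out of the FPKM steps for 10621 tested genes within 0.001 reads. They are the smallest whole numbers the steps allow, so true numbers may be multiples. Tested members had at least 116 in every library. The trend was a natural spline fit (5 degrees of freedom each) of a library's deviations on the length implied by the steps and on the GC content of the coding transcript nearest to that length. Transcripts came from GENCODE M21 (GRCm38) and promoters from RefSeq, matched by symbol.

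Same-numbered libraries deviated together on the deposited values (correlations across genes 0.151, 0.15 and 0.382), which met the rule used for pairing (each over 0.1), from the data alone. The numbers 1 and 2 were hardly distinct, since DMEM replicate 2 correlated with RPMI-1640 replicate 1 at 0.137 and DMEM replicate 1 with RPMI-1640 replicate 2 at 0.131. With the trend removed the same-numbered correlations were 0.0499, 0.0387 and 0.14 and the crossed ones 0.00996 and 0.0682, so the rule was not met and the pairing is uncertain. Alternatives were other pseudocounts, filters and scalings, the trend, recovered reads with voom, the replicate block and leaving out each library.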

Additional observations from a re-analysis of the deposited data

How the results depend on the processing

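The count of members called higher was 12 and ranged from 8 to 13 over the alternatives, and that of members called lower was 20 and ranged from 15 to 21. Leaving out each library gave 11 to 12 higher, 19 to 21 lower and 5 to 6 pairs without overlap. Recovered reads with voom gave 12 and 21. With the replicate number as a block, 12 members were higher and 21 lower, and the block changed no call other than that of Slc25a28; with the trend also removed it gave 8 and 17. After seeing the data, 2 alternatives were added: without both libraries numbered 3 the counts were 12 and 20, and with the GC content of the longest transcript in the trend they were 9 and 15. Other signs turned, and the cause was not tested. With the length and GC trend removed, with or without the replicate block, the log2 fold change was -0.055 for Slc25a51, 0.066 for Slc25a26, 0.36 for Slc25a28, 0.044 for Slc25a29, 0.26 for Slc25a43, -0.0087 for Slc25a46, 0.054 for Slc25a47, -0.12 for Slc25a16, -0.13 for Slc25a12, -0.42 for Slc25a32 and 0.12 for Slc25a38. Scaling to a common total gave 0.076 for Slc25a26, 0.017 for Slc25a28, 0.033 for Slc25a43 and 0.13 for Slc25a15. Quantile normalization gave -0.011 for Slc25a16 and -0.10 for Slc25a32, and recovered reads gave -0.0035 for Slc25a32. When each library was left out, the log2 fold change of Slc25a43 ran from -0.20 to 0.028 and that of Slc25a15 from -0.062 to 0.061. The log2 change of the ratio of Slc25a24 to Slc25a25 was -0.0016. It ran from -0.11 to 0.096 when each library was left out, was 6.9e-05 with a pseudocount of 1 FPKM and -0.38 with the trend removed. Only 3 libraries per medium and the few reads of the lowest members limit precision.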

Other observations

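Some family members lie close together in the genome (GENCODE M21, GRCm38). By these gene bounds Slc25a29 and Slc25a47 lie head to head on chromosome 12. Slc25a29 is on the minus strand at 108825873 to 108835883 and Slc25a47 on the plus strand at 108836046 to 108856815. The RefSeq promoter window of Slc25a47 lies at 108850879 to 108851178, inside its bounds and farther from Slc25a29. Whether the genes share a promoter was not tested. Slc25a29, at 7.86, 9.15 and 9.53 FPKM in DMEM and 6.46, 6.66 and 7.0 FPKM in RPMI-1640, and Slc25a47, at 2.58, 3.22 and 2.82 FPKM in DMEM and 1.85, 2.28 and 1.97 FPKM in RPMI-1640, had the same log2 fold change of -0.35, and neither passed with the length and GC trend removed. Slc25a23 and Slc25a41 lie on the minus strand of chromosome 17, at 57043711 to 57059863 and 57032773 to 57041654. Their levels were far apart, since Slc25a41 was at most 0.104 FPKM in any library. Ucp3 and Ucp2 lie on the plus strand of chromosome 7, at 100472990 to 100486432 and 100493337 to 100502020. Ucp3 was listed at 0 in the DMEM libraries and had 1 recovered read in each RPMI-1640 library, too few to compare with Ucp2.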
